A study of Triticum turgidum subsp. durum with 20 samples.

Results

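In the developing spike of durum wheat, 162 genes were transcribed in the vegetative meristem and stood at a trace of that level from Waddington stage W3.0 on. These vegetative genes, called members here, were chosen by their measured levels. A high-confidence gene model was a member when its mean at stage W1 reached 5 CPM (a gene's counts per 1000000 counts of the library) and no mean at W3.0, W3.25 or W3.5 was above 1/16 of the W1 mean. The rule picked 162 of 22756 high-confidence gene models with at least 5 CPM at W1, which is 0.712%, out of 73680 high-confidence models and 190381 models of any confidence of the A genome, the B genome and the unanchored scaffolds (Un). Because the rule used them, the values at W1 and at the 3 late stages are a description of the members and no test of them. The W2 libraries did not enter the rule. The rule did not compare W3.0 with W3.5, but it capped the means of both.

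The only genotype was Kronos, a tetraploid durum wheat (genomes AABB). It is a spring type, because intron 1 of its VRN-A1 gene is partly deleted, and its Ppd-A1a allele makes it less sensitive to day length. Plants grew under 16 h light and 8 h dark at 23 °C and 17 °C, and apices were cut about 4 h after lights on. The stages of the Waddington scale ran from the vegetative meristem (W1) over the double ridge (W2) to the appearance of glume primordia (W3.0), of lemma primordia (W3.25) and of the terminal spikelet (W3.5). These names are those of the study's results, whereas its methods place the early double ridge at W2 and the double ridge at W3.0, so the morphology at these stages is uncertain to that extent. Each had 4 biological replicates, and 1 replicate pooled about 20 apices up to W2 and about 12 from W3.0 on. Library totals ranged from 22229388 to 29655553 counts, so that 1 CPM stood for 22.2 to 29.7 counts. In pooled tissue, fewer cells that transcribe a gene and less RNA per cell cannot be told apart.

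The shoot apical meristem of a grass first makes leaf primordia. After floral induction it becomes an inflorescence meristem, the leaf ridge is held back and the spikelet ridge above it grows out, which gives the double ridge its name. MADS-box genes of the AP1 type and LFY promote reproductive identity, while SVP-type MADS-box genes are known for activity in the vegetative and early transition phases. The course of 11 such markers was set beside the labelled stages, and none was a member or at 0 in any library. These markers were chosen with earlier results of these data known, so they are no independent check of the labels. The 6 reproductive markers were AP1-A3, AP1-B1, LFY, PI-A1, MADS32-A1 and MADS32-B1. Their summed CPM was 31.4 to 39.2 at W1, 113 to 157 at W2 and 322 to 452 across the late libraries. AP1-B1 had the largest rise in CPM by W2, from 6.05 to 60.2 CPM. PI-A1 and MADS32-B1 showed no clear rise by W2, from 4.08 to 4.44 and from 4.81 to 6.17 CPM (edgeR adjusted p = 0.904 and 0.256). The 3 vegetative phase markers were SVP-B2 and a pair of TCP genes. Their summed CPM was 194 to 209 at W1, 140 to 167 at W2 and 40.8 to 68.4 in the late libraries. The fall of this sum by W2 lay mostly in the TCP pair, which kept 51.1% and 58.4% of W1. SVP-B2 kept 97.8%, with 92.9 CPM at W1 and 90.8 CPM at W2 (edgeR adjusted p = 0.199). These vegetative markers kept between 13.8% and 49.0% of their W1 level at the late stages, above the 6.25% ceiling of the members. The summed CPM of 2 photosystem I subunit genes, markers of green tissue, was 12.2 to 21.2 at W1, 42.6 to 52.9 at W2 and 34.1 to 43.9 later. No gene names are given to the members, since the sources used here do not pair these gene IDs with names or families.

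Together the members took 0.403% to 0.466% of all counts at W1. Their summed level was 4656, 4033, 4654 and 4319 CPM in W1 replicates 1 to 4, and 1316, 854, 860 and 1188 CPM in the W2 replicates. At W3.0 it was 70.3, 88.1, 100.3 and 101.4 CPM, at W3.25 it was 87.3, 100.8, 106.0 and 92.8 CPM, and at W3.5 it was 102.6, 118.2, 154.3 and 93.1 CPM. Every W2 library was below every W1 library and above every late library, and the late stages overlapped each other. The median member had a mean of 11.6 CPM at W1, 2.57 CPM at W2 and 0.190, 0.181 and 0.230 CPM in the 3 late stages in order. The 5 members with the most reads held 30.4% of the summed W1 level, 18 members had at least 50 CPM at W1, and 68 had under 10 CPM.

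**Figure D1:**
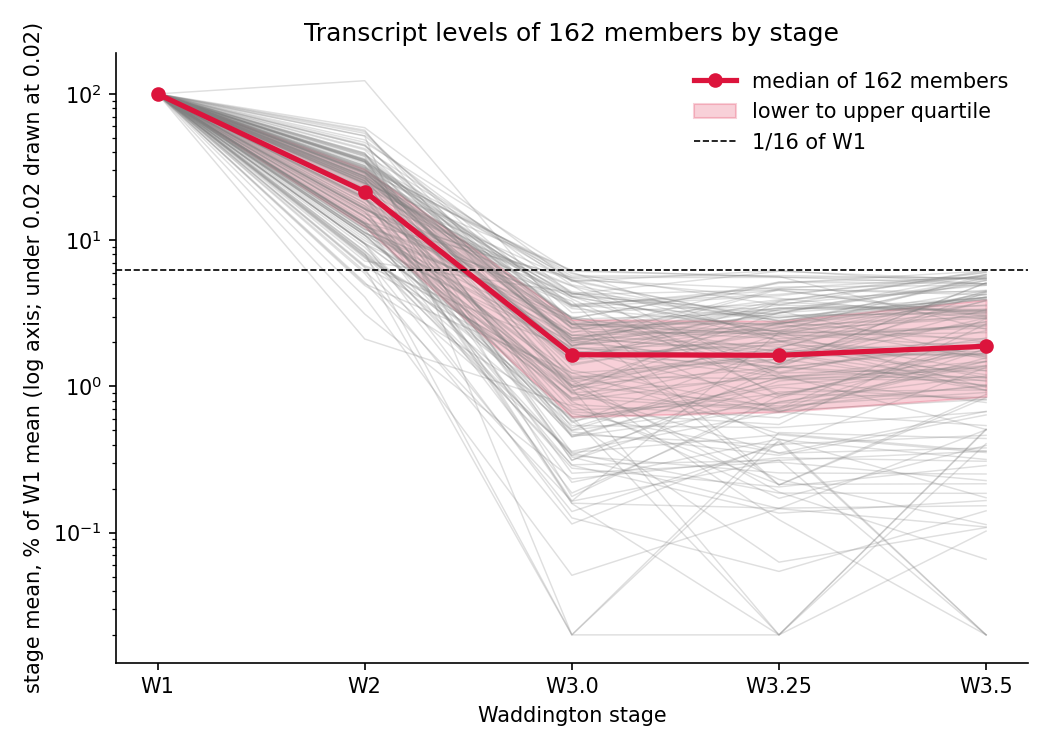
Stage mean of each of the 162 members as a percent of its own W1 mean (log axis) at the 5 Waddington stages. Grey lines are single members, the red line is their median with the quartile range shaded, and the dashed line is the 1/16 ceiling of the rule, which the W2 stage was free to cross.

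The member with the most reads was TraesCSU02G047700 on the unanchored scaffolds, at 337.7, 303.6, 377.3 and 357.6 CPM in the 4 W1 libraries and 169.5, 95.3, 92.7 and 117.7 CPM at W2. In the 12 late libraries it lay between 2.03 and 5.70 CPM, so the W1, W2 and late libraries formed 3 ranges without overlap. TraesCS1A02G265300 had the highest level per length, 784 ± 124 TPM at W1 (SD, n = 4, reads per base of gene span, scaled to the same total in each library), ahead of 512 ± 52.3 TPM for TraesCSU02G047700. Its CPM was 290.9, 185.8, 257.9 and 231.7 at W1, 75.5, 63.8, 45.8 and 47.7 at W2, and 0.205 to 0.573 in the late libraries, the lowest late range among the 10 members with the most reads. TraesCS3B02G181300 kept the highest late level of these 10, with 317.2, 264.9, 282.3 and 280.4 CPM at W1, 51.4, 21.7, 35.0 and 41.7 CPM at W2, and 12.8 to 20.5 CPM later. All 4 of its W2 libraries were still above all late libraries, although W2 replicate 2 was close to W3.0 replicate 1 (20.5 CPM). The others of the 10 were TraesCS5B02G007000 (302 CPM at W1), TraesCS5B02G007100 (168 CPM), TraesCS5A02G378700 (104 CPM), TraesCS5A02G008800 (103.5 CPM), TraesCS2B02G066100 (103.2 CPM), TraesCS1A02G177500 (85.6 CPM) and TraesCS1B02G352400 (84.5 CPM). The order by CPM and the order by TPM shared 5 of their first 10 members.

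**Figure D2:**
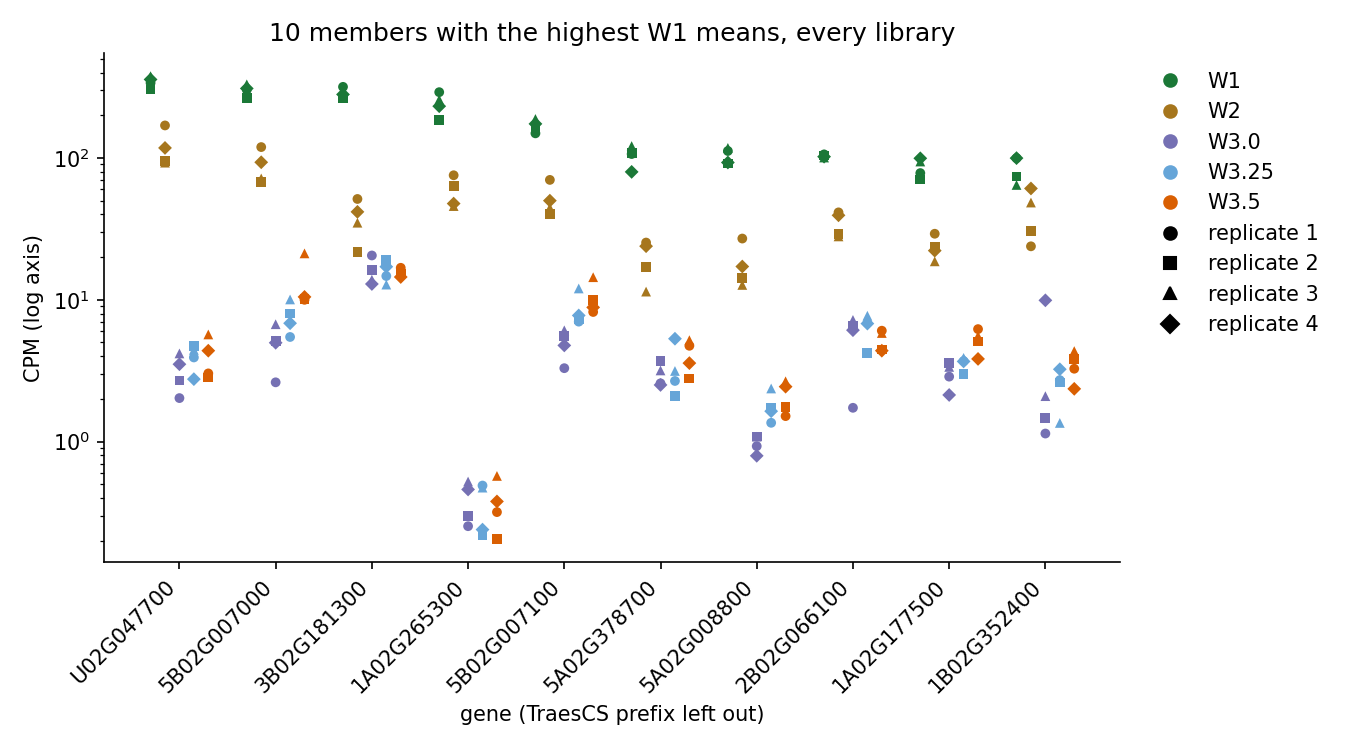
CPM (log axis) of the 10 members with the most reads at W1 in each of the 20 libraries, coloured by stage and with a symbol for each replicate. All W1 values lie above the late values, W2 lies between them, and TraesCS1A02G265300 has the lowest late values of the 10.

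Few members were silent at the late stages at this depth. No member had 0 counts in all 12 late libraries, and 89 had at least 1 count in each of them. The fewest reads were found for TraesCS2A02G424861, with 1 count over the 12 late libraries against 893 counts over the 4 W1 libraries, and for TraesCS2A02G574400, with 3 late counts against 619. All late means were under 1 CPM for 139 members, and 23 had a late mean of 1 CPM or more.

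The first question was how much of the fall had taken place by W2. At W2 the median member kept 21.5% of its W1 mean (quartiles 12.3% and 30.7%), whereas the median over the 22756 high-confidence genes with at least 5 CPM at W1 was 103%. In edgeR and DESeq2 together, 146 of the 162 members were lower at W2 than at W1 (adjusted p at most 0.01 in both tools), beside 14.6% of all 48336 genes tested and 21.8% of the high-confidence genes with at least 5 CPM at W1. The 4 W2 libraries were all below the 4 W1 libraries in 153 members, beside 12.2% and 15.9% in the same sets. The W1 libraries also chose the members, which bears on both counts. The median log2 fold change over members was -2.31 (quartiles -3.12 and -1.80), beside 0.004 over all genes tested. On the plain CPM scale with a pseudocount of 0.5 CPM, the median log2 ratio was -2.01, and it was -1.92, -2.35, -2.34 and -1.86 in W2 replicates 1 to 4 against the W1 mean. All 162 members passed the filter on low counts, as their W1 level made them do.

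The members were spread over a wide range at W2. The W2 mean was at most 1/16 of the W1 mean in 8 members, between 1/16 and 1/8 in 36, between 1/8 and 1/4 in 49, between 1/4 and 1/2 in 62, and above 1/2 in 7. Among the 22756 high-confidence genes with at least 5 CPM at W1, 2.39% were at or under 1/2 of the W1 mean at W2.

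**Figure D3:**
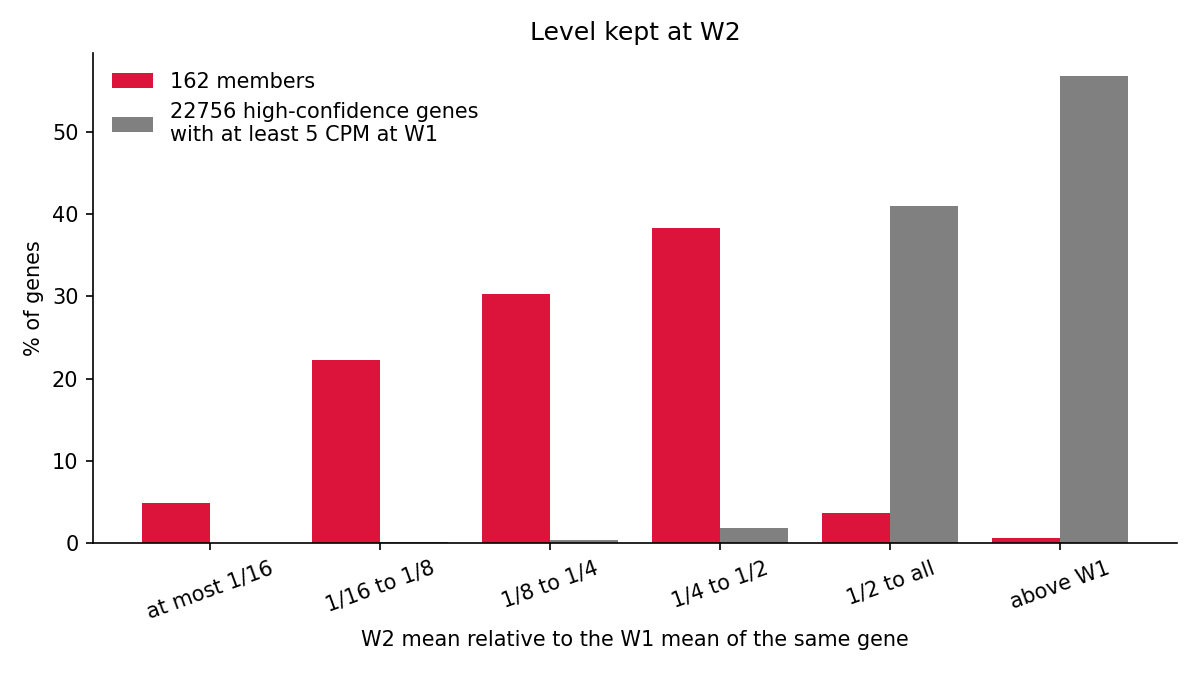
Percent of genes in 6 classes of the W2 mean relative to the W1 mean, for the 162 members (red) and the 22756 high-confidence genes with at least 5 CPM at W1 (grey). Most members lie between 1/16 and 1/2 of their W1 level, and 97.6% of the larger set lies above 1/2.

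The 5 members that had fallen furthest by W2 were TraesCSU02G036600, TraesCS7B02G467100, TraesCS7A02G219700, TraesCS1A02G170700 and TraesCS1A02G020000, which kept 2.11% to 5.03%. TraesCS7A02G219700 was measured at 41.3, 31.3, 40.3 and 43.1 CPM at W1 and at 0.973, 1.21, 1.89 and 2.32 CPM at W2, a log2 fold change of -4.72 ± 0.20 (SE, edgeR adjusted p = 2.17e-15). All 4 W2 libraries were far below the lowest W1 library. TraesCSU02G036600 fell by 5.63 on the log2 scale (SE 0.38, edgeR adjusted p = 1.41e-11), from 16.8, 19.3, 38.5 and 12.0 CPM to 1.05, 0.272, 0.135 and 0.366 CPM, with W1 replicate 3 well above the other W1 libraries. TraesCS7B02G467100 had 24.6, 9.69, 8.83 and 5.07 CPM at W1 and 0.0811, 0.0778, 0.0450 and 1.30 CPM at W2, so that 1 library held most of its reads at each stage. All 5 were below their W1 range in every W2 library.

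At the other end, TraesCS5A02G381100 was the only member with a higher mean at W2 than at W1. It had 6.80, 7.26, 7.68 and 7.65 CPM at W1 and 10.5, 9.64, 6.93 and 9.15 CPM at W2, ranges that overlap (log2 fold change 0.20 ± 0.15, edgeR adjusted p = 0.324). It then fell to 0.0845, 0.187, 0.336 and 0.167 CPM at W3.0, a log2 fold change of -5.53 ± 0.26 from W2 (edgeR adjusted p = 2.29e-14). In this gene the whole fall thus lay between W2 and W3.0. The next highest at W2 were TraesCS1B02G429800 (58.8% of W1), TraesCS5B02G546200 (56.5%), TraesCSU02G047600 (55.3%) and TraesCS5B02G120800 (53.8%). TraesCS1B02G429800 and TraesCS5B02G546200 were lower at W2 in both tools, whereas TraesCSU02G047600 and TraesCS5B02G120800 passed in edgeR (adjusted p = 0.000577 and 0.00626) and not in DESeq2 (adjusted p = 0.114 and 0.263). Of the 16 members not called lower at W2, 14 likewise passed edgeR alone.

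The second step was tested between W2 and W3.0, where the W3.0 libraries, but not the W2 libraries, had also chosen the members. Every member had a lower mean at W3.0, and 149 of 162 were lower in both tools, beside 11.6% of all genes tested and 14.5% of the high-confidence genes with at least 5 CPM at W1. The median log2 fold change over members was -3.72 (quartiles -4.73 and -2.89), beside 0.006 over all genes tested. The 4 W3.0 libraries were all below the 4 W2 libraries in 147 members, beside 13.5% and 16.5% in the same sets. All 13 members that missed the call had a W2 mean under 2 CPM, and TraesCSU02G036600, TraesCS7B02G467100, TraesCS1A02G170700 and TraesCS1A02G020000 were among them (edgeR adjusted p = 0.163, 0.076, 0.0268 and 0.0142). TraesCS1A02G265300 had a log2 fold change of -7.26 ± 0.24 at this step against -2.16 ± 0.13 from W1 to W2, and TraesCS3B02G181300 had -1.28 ± 0.17 against -3.04 ± 0.16. In CPM, 155 of the 162 members were already at or under 1/2 of their W1 mean at W2. On the log2 scale the members differed in which of the 2 steps was larger. These 2 steps share the W2 libraries, so a high W2 value makes the first fall smaller and the second larger.

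The replicates of the members spread widely at W2. The median coefficient of variation over the 4 W2 libraries was 39.1% for members, where counting error alone would give 12.6%, and 6.03% for the high-confidence genes with at least 5 CPM at W1, where it would give 4.65%. At W1 the medians were 16.4% for members, with 5.60% from counting error, and 8.64% for the larger set, with 4.45%. In 27 members the W1 libraries differed by more than 2-fold.

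The spread had a direction. W2 replicate 1 was the highest of the 4 in 89 members (54.9%) and W2 replicate 4 in 62 (38.3%), while replicates 2 and 3 were highest in 8 and 3 members. Over the 22756 high-confidence genes with at least 5 CPM at W1, the shares were 30.6%, 23.0%, 22.1% and 24.3% for replicates 1 to 4. The median member stood at 120%, 76.4%, 75.5% and 110% of its W2 mean in replicates 1 to 4. The 6 reproductive markers summed to 113, 119, 157 and 143 CPM in the same libraries, the 3 vegetative phase markers to 167, 146, 140 and 144 CPM, and the green tissue markers to 42.6, 52.9, 48.9 and 49.6 CPM. W2 replicate 1, with the highest member sum, thus had the lowest reproductive and green and the highest vegetative sums, but W2 replicate 4 was second in members and in reproductive markers alike. The part of these differences in the members' spread was not tested.

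**Figure D4:**
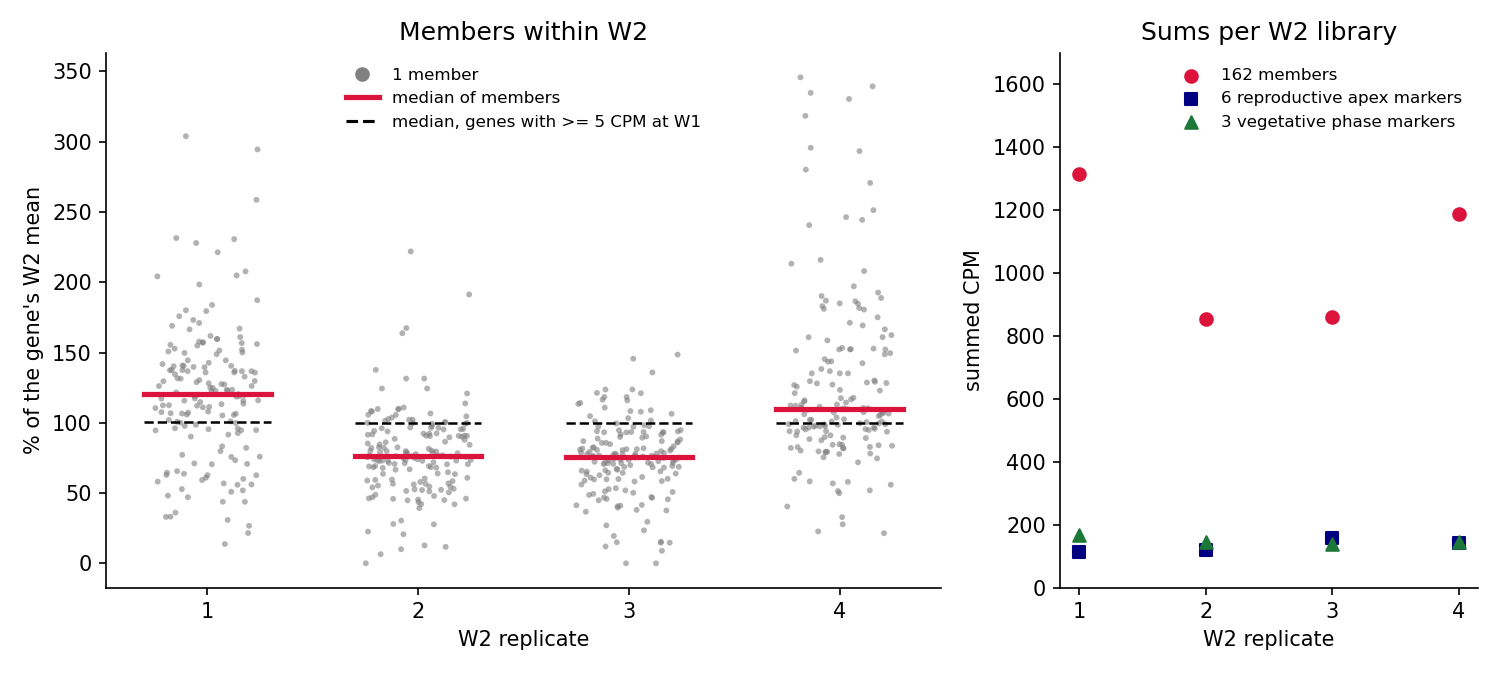
Left, each member's CPM in the 4 W2 libraries as a percent of its W2 mean, with the member median (red) and the median of the high-confidence genes with at least 5 CPM at W1 (dashed). Right, summed CPM of the members and of 2 marker lists in the same libraries, where members are at 1316 and 1188 CPM in replicates 1 and 4 and near 860 CPM in replicates 2 and 3.

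The members highest in W2 replicate 1 and those highest in W2 replicate 4 also differed in their W1 libraries. These sets were formed after their values were seen and are given as a description. Of the 62 members highest in W2 replicate 4, 34 were highest in W1 replicate 1 and 12 in W1 replicate 3. Of the 89 highest in W2 replicate 1, 24 were highest in W1 replicate 1 and 45 in W1 replicate 3. Over all members, W1 replicates 1 and 3 were highest in 61 and 62 (37.7% and 38.3%). Over the high-confidence genes with at least 5 CPM at W1, the shares were 31.1% and 24.3%. The set highest in W2 replicate 4 kept a median of 16.5% of its W1 mean at W2 and the set highest in W2 replicate 1 kept 24.9%. TraesCS5A02G369100, named after its values were seen, was highest in W1 replicate 1 and W2 replicate 4. It had 30.6, 13.98, 5.01 and 6.97 CPM at W1 and 0.405, 0.700, 0.135 and 4.84 CPM at W2. Its W1 replicate 1 and W2 replicate 4 both stand far above the others. At W3.0, TraesCS3B02G130900, TraesCS3B02G130500 and TraesCS1B02G352400 had 1.88, 1.30 and 9.91 CPM in replicate 4. The other W3.0 libraries had at most 0.224, 0.150 and 2.09 CPM. These genes were named here after these values were seen. W3.0 replicate 4 was a separate pool of apices from W2 replicate 4, and what these pools may share was not tested. For TraesCS1B02G352400, 1 of the 10 members with the most reads, the W2 libraries held 23.8, 30.6, 48.5 and 60.9 CPM, and the fall from W1 passed in edgeR (log2 fold change -1.15 ± 0.28, adjusted p = 0.00199) but not in DESeq2 (adjusted p = 0.0787).

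The late stages were then compared among themselves. The rule held the mean of each of them under the ceiling, so a gene that rose past it at W3.5 could not be a member, and these values describe the members below the ceiling. Between W3.0 and W3.5, 5 members were higher and 2 lower at W3.5 in both tools, beside 2.86% and 3.41% of all genes tested, which are 3.09% and 1.23% of the members. At an unadjusted edgeR p under 0.05, 28 were higher and 17 lower. The share of all genes at that cutoff was not computed, so these 2 counts are not read as a tilt of the members. The 4 W3.0 libraries were all below the 4 W3.5 libraries in 12 of the 162 members and all above them in 9 of 162. Over all genes tested, the shares were 12.2% and 6.06%. Between W3.0 and W3.25 no member was called, beside 0.474% higher and 0.348% lower among all genes tested. Between W3.25 and W3.5 again none was called, beside 0.288% higher and 0.414% lower. At an unadjusted edgeR p under 0.05, 9 were higher and 12 lower at W3.25 than at W3.0. In the same way, 14 were higher and 2 lower at W3.5 than at W3.25. DESeq2 alone called 4 lower in the first of these comparisons and 1 higher in the second. Shares of all genes under these looser rules were not computed, so the counts are not set against them.

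The members that rose did so from a low floor. TraesCS2B02G568200 had 0.254, 0.225, 0.187 and 0.377 CPM at W3.0 and 0.797, 1.31, 1.82 and 0.589 CPM at W3.5, ranges without overlap (log2 fold change 2.10 ± 0.39, edgeR adjusted p = 0.000508). At W1 it had stood at 25.7 ± 2.68 CPM (SD, n = 4). TraesCS5B02G007000 had 2.62, 5.13, 6.73 and 4.98 CPM at W3.0 and 9.999, 10.2, 21.2 and 10.5 CPM at W3.5, with a log2 fold change of 1.37 ± 0.26 (edgeR adjusted p = 0.00065). All 4 W3.5 libraries were above all W3.0 libraries, and replicate 3 stood far above the other W3.5 libraries. Its neighbour TraesCS5B02G007100 rose by 1.02 ± 0.21 on the log2 scale, from 3.30, 5.58, 6.09 and 4.77 CPM to 8.21, 9.97, 14.4 and 8.84 CPM. TraesCS4B02G363700 rose by 2.94 ± 0.64 and TraesCS1A02G177500 by 0.73 ± 0.18 on the same scale (edgeR adjusted p = 0.0024 and 0.0084). TraesCS4B02G348600 went the other way, from 0.211, 0.187, 0.262 and 0.377 CPM at W3.0 to 0, 0.0820, 0.0337 and 0 CPM at W3.5, and TraesCS4B02G367400 fell by 0.99 ± 0.25 on the log2 scale (edgeR adjusted p = 0.00518 and 0.00769). The rises left these members at a small share of W1, as the rule required. Without W3.5 replicate 3, which had the highest member sum of that stage, 2 of the 7 calls were left, TraesCS2B02G568200 and TraesCS5B02G007000.

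**Figure D5:**
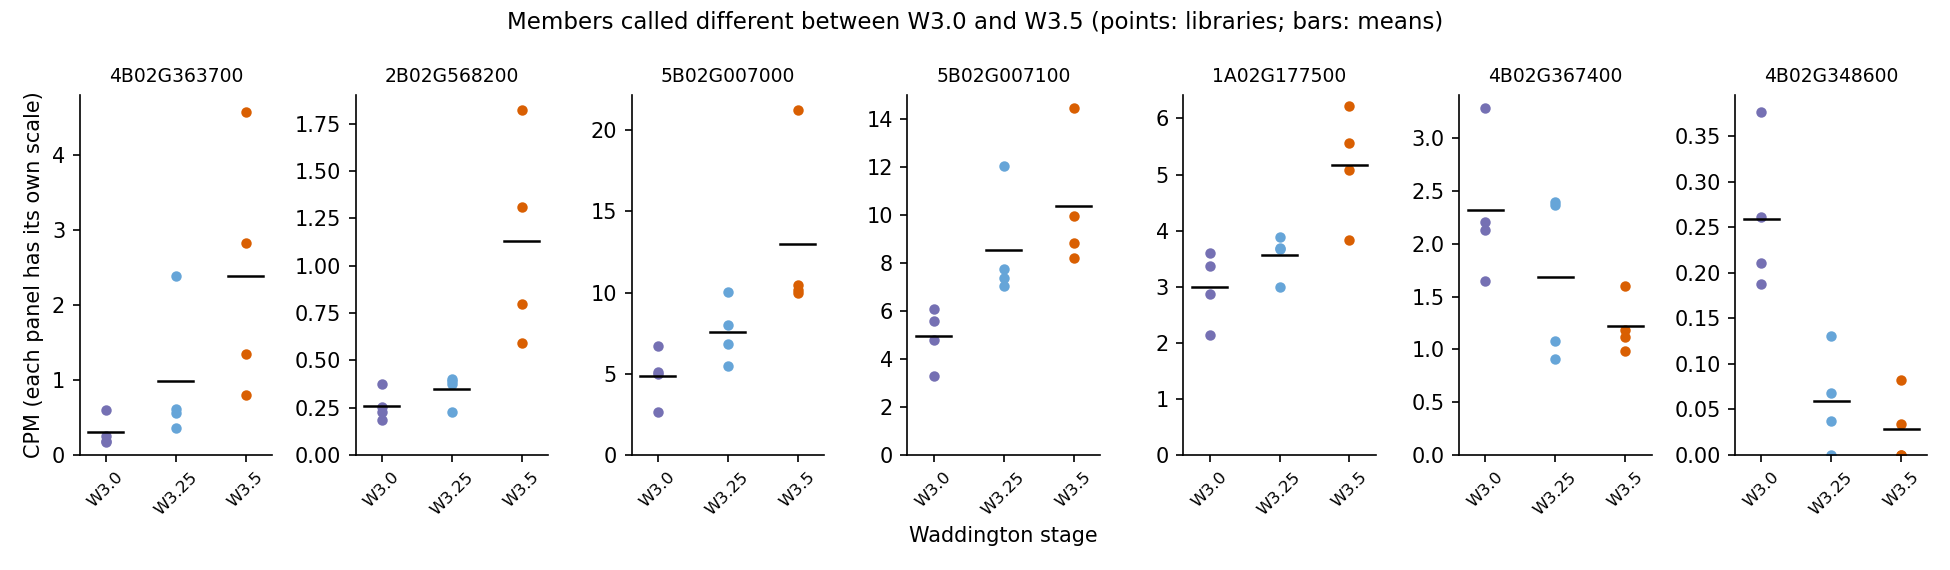
CPM of the 7 members called different between W3.0 and W3.5 in the 12 late libraries, each panel with its own linear axis from 0. Points are libraries and bars are stage means, with 5 members higher and 2 lower at W3.5.

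The members lay on all 14 A and B chromosomes, 76 on the A and 78 on the B genome, with 8 on unanchored scaffolds. Their share of the high-confidence genes with at least 5 CPM at W1 was 0.666% on the A genome, 0.697% on the B genome and 4.97% (8 of 161) on the unanchored scaffolds. Chromosome 5A held the most (18) and 4A the fewest (5). The median gene span was 2185 bp for members and 4255 bp for the larger set, and 42.9% of the 154 members on chromosomes lay within 50 Mb of the outermost gene model of their chromosome, against 19.2% of the larger set. A CPM minimum takes no account of length, so the comparison of spans is between sets under the same minimum. Of the members, 11 overlap another gene model (6.79%, against 11.3% of the larger set), and reads in such an overlap were not counted.

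Some members were near neighbours on the IWGSC RefSeq v1.0 assembly. With at most 5 high-confidence gene models between them, 25 members formed 10 groups, 3 of them with 3 or more members. On chromosome 1A, TraesCS1A02G265300, TraesCS1A02G265500, TraesCS1A02G265600 and TraesCS1A02G265800 lay between 460967358 and 461357498, all on the plus strand with spans of 407 to 840 bp. They had 242, 24.5, 22.2 and 73.0 CPM at W1 and kept 24.1%, 25.4%, 15.7% and 32.3% at W2. W1 replicate 1 was the highest W1 library in all 4, as it was in 37.7% of all members. Within the same window TraesCS1A02G265700 missed the rule by a little, with 4.95 CPM at W1 and 0.551 CPM at W2, while TraesCS1A02G265400 was at 0 in every stage. Outside the window, the non-member TraesCS1A02G266000 also fell, with 17.5, 7.63, 0.706, 0.919 and 1.86 CPM from W1 to W3.5.

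On chromosome 4B, the adjacent models TraesCS4B02G363700, TraesCS4B02G363800, TraesCS4B02G363900 and TraesCS4B02G364000 lay between 652288572 and 652400195. Their W1 means were 53.4, 7.33, 18.2 and 24.6 CPM, and they kept 32.02%, 8.04%, 22.6% and 9.43% at W2. TraesCS4B02G363700 rose to 2.39 ± 1.70 CPM at W3.5 (SD, n = 4), a call that was lost without W3.0 replicate 2 or W3.5 replicate 3. TraesCS4B02G363900 had 0.770 ± 0.176 CPM at W3.5 and 0.969 ± 0.235 CPM at W3.0, a change that was not called. The difference between these 2 genes was not tested. On either side, TraesCS4B02G363500 and TraesCS4B02G364200 had 10.2 and 33.8 CPM at W1 and 10.2 and 51.2 CPM at W3.0. Unlike TraesCS1A02G266000 next to the 1A group, the nearest transcribed models outside this group thus kept their W1 level or exceeded it.

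On chromosome 5A, TraesCS5A02G008700, TraesCS5A02G008800 and TraesCS5A02G008900 lay between 6287359 and 6424272. Their W1 means were 71.4, 103.5 and 45.9 CPM. W1 replicate 3 and W2 replicate 1 were the highest library of their stage in all 3, as in 38.3% and 54.9% of all members. They kept 9.42%, 17.2% and 15.6% at W2, and at W3.0 their means were 0.0901, 0.974 and 0.208 CPM. Next to the pair TraesCS5B02G007000 and TraesCS5B02G007100 on chromosome 5B, the non-member TraesCS5B02G007200 followed a like course, with 122, 38.2, 3.35, 6.14 and 8.49 CPM from W1 to W3.5. Reads were counted only where they mapped to 1 place, so near-identical copies within such groups can lose reads or share them, and values of single genes there are uncertain to that extent.

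Neighbours outside the rule were also described. Of 569 high-confidence non-members within 2 models of a member, 176 had at least 5 CPM at W1, and in 22 of these (12.5%) the W3.0 mean was at most 1/2 of the W1 mean, against 5.23% of all 22594 non-members with at least 5 CPM. The median log2 ratio of W3.0 to W1 was -0.03 in the flanking genes and 0.07 in all non-members.

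Just inside the ceiling were TraesCS3A02G285800, TraesCS7B02G081800 and TraesCS2B02G066100, whose highest late mean was 6.24%, 6.22% and 6.20% of W1. Just outside were TraesCS3B02G131000, TraesCS1B02G473200 and TraesCS4A02G369100, with 6.27%, 6.46% and 6.51%. TraesCS2B02G066100 is 1 of the 10 members with the most reads and had the tightest W1 replicates among them, 106.0, 104.1, 100.7 and 102.1 CPM. The genes on both sides of the line had W2 means of 24.5% to 60.5% of W1.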

How the data were processed

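RNA from pooled Kronos apices was sequenced as 100 bp single reads over 2 lanes, with 4 libraries at each of 5 stages. The authors trimmed reads with Fastp, aligned them with STAR 2.7.5 to IWGSC RefSeq v1.0 (A and B genomes plus scaffolds of no known chromosome), and kept uniquely mapped reads. Per the file headers, featureCounts 2.0.0 made the deposited raw counts over the whole span of each v1.1 gene model, at a mapping quality of at least 40, without using strand and without reads over more than 1 model, so a gene and an antisense or nested partner cannot be fully separated. The 79047 D genome models, all at 0 counts, were left out.

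CPM used column totals, and TPM used the gene span. Counts of genes that passed filterByExpr (minimum count 10, minimum total 15; 48336 genes) were tested in R 4.3.3 with edgeR 4.0.16 (TMM, quasi-likelihood test) and DESeq2 1.42.0 (Wald test). All 20 libraries were in 1 fit with stage as the factor (15 residual degrees of freedom), p-values were two-sided with Benjamini-Hochberg adjustment over all genes tested, and a call needed 0.01 in both tools in the same direction. Fold changes and SEs are edgeR's. The fits were tested on simulated counts. Relative to CPM, TMM moved the median log2 ratio to W1 over genes with at least 5 CPM at W1 by -0.09 at W2 and by -0.14, -0.15 and -0.18 in the 3 late stages in order.

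The members and marker lists were chosen with earlier results of these data known. Members were named when among the 10 with the highest W1 mean, the 5 lowest and 5 highest ratios of W2 to W1, a neighbour group of at least 3, the 6 largest changes called between W3.0 and W3.5 or the 3 nearest the 1/16 ceiling, and others are marked as named after their values were seen or stand in a count of 5 or fewer. Of the gene IDs, 0 matched the RefSeq gene table (Svevo.v1), so lists by gene family could not be applied. Alternatives changed the scaling, the stage value, the thresholds, the tool, the filter, the libraries in the fit, the replicate block and each library in turn.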

Additional observations from a re-analysis of the deposited data

Results flagged for a closer look

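Of 87 groups of 4 libraries examined (the member sum at each stage and the named members at the stages described), 8 held a library far from the other 3, where about 1 in 20 is flagged by chance. At W1 these were TraesCS4B02G348600 at 20.7 CPM, lowest in replicate 4, TraesCS5A02G008900 at 52.0 CPM, highest in replicate 3, TraesCS5B02G120800 at 7.22 CPM, lowest in replicate 2, and TraesCS7B02G081800 at 9.97 CPM, highest in replicate 1. At W2 they were TraesCS5A02G008700 at 11.2 CPM and TraesCSU02G047600 at 17.5 CPM, both highest in replicate 1, and TraesCS7B02G467100 at 1.30 CPM, highest in replicate 4. At W3.5, TraesCS5B02G007000 was highest in replicate 3 at 21.2 CPM.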

How the results depend on the processing

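The number of members depends on the thresholds by construction. It was 493 with a W1 minimum of 1 CPM, 94 with 10 CPM, 290 at a ceiling of 1/8 and 90 at 1/32, and 193 with TMM scaling, 165 with medians and 168 with low-confidence models. Leaving out single libraries gave 153 to 171 members. Members lower at W2 than at W1 numbered 160 in edgeR alone and 135 to 149 without single libraries, and members lower at W3.0 than at W2 numbered 134 with only the 2 stages in the fit and 145 to 153 without single libraries. The count between W3.0 and W3.5 moved most, from 7 to 15 in DESeq2 alone, 18 at an adjusted p of 0.05, 15 with no filter on low counts, and 2 to 11 without single libraries. It was 2 without W3.5 replicate 3, 4 without W3.5 replicate 1 or W3.0 replicate 4, and 11 without W2 replicate 4, and the cause was not tested. Shares of all genes called were computed under the main settings only, so counts of calls under any alternative are not set against them. The median log2 ratio of W2 to W1 was -1.61 with a pseudocount of 2 CPM, which shrinks low values, -2.19 with 0.1 CPM, and -2.15 to -1.95 without single libraries.

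Same-numbered libraries of different stages had correlations of -0.06 to 0.10 in their deviations from stage means. Differently numbered libraries were not compared, so these values cannot settle whether the numbers pair samples. With the replicate block the 3 counts of calls were 141, 146 and 5.

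Among 75 values of named members, no direction was reversed. TraesCS4B02G363700 was no longer called lower at W2 with the block, nor after any 1 of 8 libraries was left out (each W1 library, W2 replicates 2, 3 and 4, and W3.5 replicate 2). Late levels of most members rest on few counts, so differences there were often not detectable at this depth.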

Other observations

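Low-confidence gene models were left out by the rule, yet 6 of 116701 met the same thresholds, out of 2187 with at least 5 CPM at W1. TraesCS4A02G111000LC had stage means of 13.6, 6.002, 0.126, 0.550 and 0.417 CPM from W1 to W3.5, and the others had 5.45 to 8.95 CPM at W1.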
